A study of Homo sapiens with 12 samples.

Results

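The uridine diphosphate glucuronosyltransferases (UGT), cytosolic sulfotransferases (SULT) and soluble glutathione transferases (GST) attach glucuronic acid, sulfate or glutathione to drugs, hormones, bilirubin, bile acids and reactive products of oxidation. The conjugates dissolve better in water and leave the hepatocyte through pumps into bile or blood, and the liver is the main site of this step of detoxification. Genes were taken by symbol from the expression table: 57 genes matched the UGT, SULT and GST name patterns, 14 of them had no p-value because they were listed at a mean of 0, and 3 were pseudogenes in RefSeq. Of the 40 genes left, 1 is an antisense RNA (GSTT1-AS1), so 39 protein-coding enzymes were described out of 19077 genes with a p-value: 15 UGT, 10 SULT and 14 GST genes. In the m6A table, 54 of 46178 regions carried the name of at least 1 of these enzymes, and 28 of the 39 enzymes had such a region.

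HepG2, a line grown from a human liver cancer, was treated with toosendanin, a triterpenoid of Melia toosendan known for liver toxicity, or labelled as control, with no dose, time or vehicle in the labels. Each condition had 3 libraries of RNA pulled down with an antibody against N6-methyladenosine (IP) and 3 libraries of RNA before the pull-down (input), 12 in all. All libraries come from the same line, so the conditions share its genotype. Both tables hold the authors' own comparisons: the expression table gives a fold change with its standard error, and the m6A table gives 1 sum of reads per region for each condition and kind of library, so no value per library is printed. Over all regions the sums were 29094328 for toosendanin IP, 24253006 for toosendanin input, 42316089 for control IP and 34131862 for control input. The labels do not say if replicate libraries are separate cultures, and the expression p-values then cover only the spread among these libraries, which may be technical. All 10 hepatocyte markers checked, among them ALB and TTR, had a mean normalized count of at least 5546 in the authors' deposited table. There 4 of these 10 were called higher and 2 lower, beside 31.4% of all genes called. On the log2 scale APOA2 stood at 0.96, APOA1 at 0.58, ALB at 0.52 and FGB at 0.12. AFP stood at -0.29 and AHSG at -0.21 in the authors' deposited table. Of the markers of other cells, 4 of 6 for fibroblasts, 1 of 4 for endothelium and 2 of 6 for blood and immune cells were listed at 0. Of those with an adjusted p, PDGFRB of the fibroblast list was called lower at -2.25 ± 0.87 with a mean of 36.1 in the authors' deposited table (± is the standard error throughout). On the blood and immune list, CD68 was called higher at 1.41 ± 0.09 with a mean of 1426, and LYZ lower at -0.37 ± 0.06 with a mean of 49191, in the authors' deposited table. The part of these genes in the enzyme changes was not tested. Because RNA was measured in bulk, fewer cells of a kind and less RNA per cell cannot be told apart.

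After toosendanin the conjugating enzymes did not move as one group. The sulfotransferases SULT2A1 and SULT1C2 rose most, the UGT2B genes UGT2B10, UGT2B11 and UGT2B7 fell by 2-fold or more while their neighbour UGT2B4 rose, and all 3 alpha-class GST genes measured fell. With calls at an adjusted p under 0.05 in the authors' deposited table, 6 enzymes rose and 9 fell among the 32 with an adjusted p, and the other 7, among them UGT8 with a mean of 0.564, had none and means of at most 1.31. Over all genes of that deposited table, 31.4% were called, 15.7% higher and 15.7% lower. A change of at least 2-fold was called for 6 of the enzymes, UGT2B10, UGT2B11, UGT2B7, UGT2B28, SULT2A1 and SULT1C2, against 7.29% of all genes in the authors' deposited table. Among enzymes in the upper 50% of mean normalized count 5 rose and 6 fell of 19, against 43.4% called among all such genes in the authors' deposited table. The median log2 fold change in the authors' deposited table was -0.14 over the 39 enzymes and 0.01 over all genes with a p-value.

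**Figure D1:**
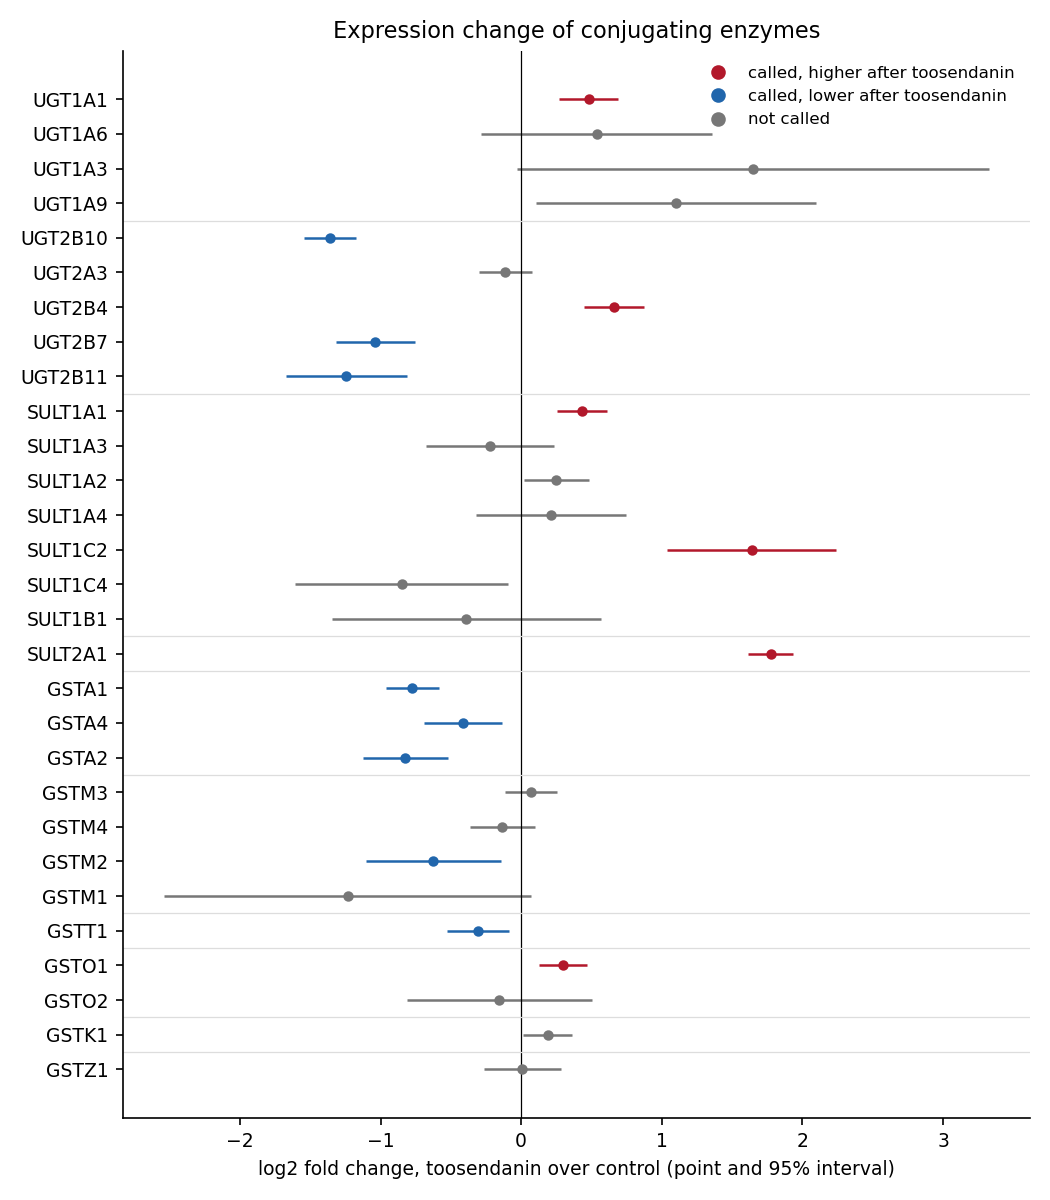
Log2 fold change (toosendanin over control) of enzymes with an adjusted p in the authors' deposited table, grouped by family and ordered within it by mean normalized count; bars are 95% intervals from the deposited standard error. UGT2B10, UGT2B7, UGT2B11 and the GSTA genes lie left of 0 and SULT2A1, SULT1C2 and UGT2B4 right of it; UGT2B28, UGT1A10 and GSTT4 are left off because their means were under 5.

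The UGT2 family changed in both directions within a single gene cluster. In RefSeq the expressed genes follow each other in the order UGT2B10, UGT2A3, UGT2B7, UGT2B11, UGT2B28 and UGT2B4. UGT2B10, which glucuronidates nicotine and other amines, had a log2 fold change of -1.36 ± 0.10, with a mean normalized count of 1627 and an adjusted p of 1.09e-43 in the authors' deposited DESeq2 table. That value corresponds to a level 2.56-fold lower after toosendanin. UGT2B7, the enzyme of morphine glucuronidation, stood at -1.04 ± 0.14 and UGT2B11 at -1.24 ± 0.22 in the authors' deposited table. Between UGT2B10 and UGT2B7 lies UGT2A3, which was not called in the authors' deposited table at -0.11 ± 0.10, although its mean of 1289 gave it a standard error like that of UGT2B10. UGT2B4, which acts on bile acids, rose by 0.66 ± 0.11 in the authors' deposited table, a level 1.58-fold higher. UGT2B28 was also called lower (adjusted p = 0.0165), but its mean of 4.17 in the authors' deposited DESeq2 table is too small for its fitted fold to be read. The genes of this family are close in sequence, the handling of reads that match several of them is not known here, and the UGT2B values are therefore given as uncertain.

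Counts in the m6A table show the same split. Its summed input for UGT2B7 was 61 reads after toosendanin and 168 in control, and for UGT2B11 it was 70 after toosendanin and 164 in control. UGT2B4 had 449 input reads after toosendanin and 357 in control, although the toosendanin inputs together hold fewer reads. Centred on the median over genes, the log2 change of the input was -0.97 for UGT2B7, -0.73 for UGT2B11 and 0.83 for UGT2B4, with 95% counting intervals of -1.39 to -0.54, -1.14 to -0.33 and 0.62 to 1.03. UGT2B10 and UGT2A3 have no region in the m6A table used here despite their high means. The reads of both tables may come from the same libraries, so the input is a second view of the data and not a replicate.

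Promoter sequences are shown for UGT2B10 and UGT2B11 because these genes fell by similar amounts and are close copies of each other. The 250 bases before each RefSeq gene start are printed 5′ to 3′ (RefSeq, GRCh38.p14), and capitals mark bases that do not match the partner in a pairwise alignment. UGT2B10 lies on the plus strand at chr4:68815744-68815993 and UGT2B11 on the minus strand at chr4:69214749-69214998.
UGT2B10: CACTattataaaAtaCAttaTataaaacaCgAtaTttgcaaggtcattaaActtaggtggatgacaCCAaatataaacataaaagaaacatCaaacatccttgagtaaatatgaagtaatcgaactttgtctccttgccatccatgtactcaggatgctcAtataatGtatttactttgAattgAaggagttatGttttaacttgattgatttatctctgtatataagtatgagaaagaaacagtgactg
UGT2B11: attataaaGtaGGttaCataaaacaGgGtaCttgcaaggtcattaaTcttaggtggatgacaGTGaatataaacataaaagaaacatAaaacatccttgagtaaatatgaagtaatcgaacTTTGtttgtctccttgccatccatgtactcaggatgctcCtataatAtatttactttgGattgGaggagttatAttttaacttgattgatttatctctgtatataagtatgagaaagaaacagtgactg
Over the aligned bases this pair was 93.1% identical, while UGT2B7, which fell as well, was 72.0% identical to UGT2B10 in the same window. No promoter was found for UGT2B4, which rose, so only genes that fell were compared. Whether promoter likeness goes with the direction of change was not tested.

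The UGT1A enzymes share their last exons and differ in the first, so reads from the common exons cannot be given to 1 of them. UGT1A1, the bilirubin-conjugating enzyme, rose by 0.48 ± 0.11 with a mean of 3886 and an adjusted p of 5.8e-05 in the authors' deposited DESeq2 table. The other UGT1A genes were not called or had no adjusted p. UGT1A3, which acts on bile acids and estrogens, stood at 1.65 ± 0.86, UGT1A6, an enzyme for small phenols, at 0.54 ± 0.42, and UGT1A9, which conjugates bulkier phenols such as propofol, at 1.10 ± 0.51 in the authors' deposited table. Standard errors were large for the mean in 2 of them: those of UGT1A6 and UGT1A3 exceeded the errors of 96.9% and 96.5% of genes with a mean within 1.5-fold of theirs in that authors' deposited table. UGT1A10 had a mean of 1.87, UGT1A4 of 1.06 and UGT1A5 of 0.208, and none of these carries a readable change. All UGT1A values are given as uncertain for the reason above.

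Within this locus the m6A table holds 4 regions, of which 1 was called lower, 1 higher and 2 not called; the difference between them was not tested. In the larger of 2 regions that carry the names of all UGT1A genes, the authors' sums were 2198 IP and 1569 input reads after toosendanin, against 3685 IP and 2001 input reads in control. The IP over input ratio was thus 1.40 after toosendanin and 1.84 in control, with a deposited log2 fold change of -0.45 (95% counting interval -0.57 to -0.33, FDR 5.81e-11). The smaller of them stood at -0.17 and was not called (FDR 0.776). A region that carries the names UGT1A1 and UGT1A3 had 906 IP and 1388 input reads after toosendanin, against 759 IP and 1521 input reads in control. Its ratio was 0.653 after toosendanin and 0.499 in control, and the deposited log2 fold change was 0.32 (FDR 0.00812). The region of UGT1A1 alone was not called, with a ratio of 1.08 after toosendanin and 1.05 in control. Input counts of that region gave a centred log2 change of 0.63, against 0.32 over all regions with the UGT1A1 name.

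Among sulfotransferases, 3 rose and 0 fell of 8 with an adjusted p in the authors' deposited table, a share of 37.5% beside 31.4% of all genes. SULT2A1, which sulfates bile acids and dehydroepiandrosterone, had the smallest adjusted p of all conjugating enzymes. It rose by 1.78 ± 0.08, a 3.42-fold higher level, with a mean of 6282 and an adjusted p of 3.5e-103 in the authors' deposited DESeq2 table. The summed input of SULT2A1 was 6652 reads after toosendanin and 2729 in control, a centred log2 change of 1.78 (95% counting interval 1.72 to 1.84). SULT1C2, a phenol sulfotransferase, rose by 1.64 ± 0.31 at a mean of 109.9 in the authors' deposited table. Its only m6A region held 31 input reads after toosendanin and 13 in control. SULT1C4, another member of the same cluster, stood at -0.85 ± 0.39 in the authors' deposited table and was not called (adjusted p = 0.0811 by DESeq2).

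SULT1A1, the main phenol sulfotransferase of liver, rose by 0.43 ± 0.09 with a mean of 4437 in the authors' deposited table. Its input sum was 8216 reads after toosendanin and 8818 in control, 0.39 higher after centring. SULT1A2, its close copy, stood at 0.25 ± 0.12 and was not called in the authors' deposited table (adjusted p = 0.092 by DESeq2). SULT1A3 and SULT1A4, which sulfate dopamine and encode near-identical proteins, stood at -0.22 ± 0.23 and 0.21 ± 0.27 there. The errors of SULT1A3 and SULT1A4 exceeded those of 95.9% and 94.6% of genes of like mean in the authors' deposited table, and each of their 4 m6A regions carries both names. SULT1A values are therefore given as uncertain. Of the remaining members, SULT1B1, known for sulfating thyroid hormone, was not called at -0.39 ± 0.49, and SULT1E1 and SULT2B1, which act on estrogens and cholesterol, had means of 1.31 and 0.830 in the authors' deposited table.

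Glutathione transferases showed 1 higher and 5 lower of 13 with an adjusted p in the authors' deposited table, a share of 46.2% beside 31.4% of all genes. The alpha class held 3 of those decreases. GSTA1 and GSTA2, abundant liver enzymes that also reduce lipid peroxides, fell by 0.77 ± 0.10 and 0.82 ± 0.15, and GSTA4, which clears the lipid aldehyde 4-hydroxynonenal, stood at -0.41 ± 0.14 in the authors' deposited table (adjusted p = 0.014 by DESeq2). GSTA1 had 993 input reads after toosendanin and 2542 in control, and GSTA2 had 549 after toosendanin and 1408 in control. The centred log2 changes of these inputs were -0.86 for each, with counting intervals of -0.97 to -0.76 for GSTA1 and -1.01 to -0.72 for GSTA2. GSTA4 had 220 input reads after toosendanin and 437 in control. GSTA1 and GSTA2 are close copies, and their values are given as uncertain, since reads could pass from the counts of one to those of the other.

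The promoters of GSTA1 and GSTA2 are shown because this pair fell by nearly the same amount. As above, the 250 bases before each RefSeq gene start are given 5′ to 3′ (RefSeq, GRCh38.p14, minus strand), and capitals mark bases that differ between them. GSTA1 is at chr6:52803817-52804066 and GSTA2 at chr6:52763476-52763725.
GSTA1: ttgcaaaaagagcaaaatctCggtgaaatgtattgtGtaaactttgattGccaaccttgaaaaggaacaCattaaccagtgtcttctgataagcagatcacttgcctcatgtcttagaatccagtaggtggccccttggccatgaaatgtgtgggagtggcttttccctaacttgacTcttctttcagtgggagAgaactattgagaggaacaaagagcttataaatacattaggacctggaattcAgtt
GSTA2: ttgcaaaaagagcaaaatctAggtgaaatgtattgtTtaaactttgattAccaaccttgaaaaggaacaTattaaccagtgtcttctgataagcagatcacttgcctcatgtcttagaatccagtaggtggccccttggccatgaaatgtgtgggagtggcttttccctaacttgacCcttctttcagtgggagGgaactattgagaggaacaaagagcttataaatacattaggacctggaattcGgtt
The pair differed at 7 of 250 bases. A promoter was found in RefSeq for 33 of the 39 enzymes, and these windows were searched on both strands for short motifs, 2 of which are given here. TGACNNNGC, the core of the antioxidant response element, occurred in 8 windows, among them UGT2B10, UGT2B11, SULT1C2, GSTA4 and GSTO1, and in 10.9% of 35116 RefSeq windows of the same length. GCGTG, the core bound by the aryl hydrocarbon receptor, whose first bases can be the last ones of the antioxidant core, occurred in 9 windows and in 32.2% of all. Of the genes with the antioxidant core, GSTO1 and SULT1C2 were called higher, and UGT2B10, UGT2B11 and GSTA4 lower. The others, UGT1A5, GSTM1 and GSTM5, were not called or had no adjusted p. The part of the motif in these changes was not tested.

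In the mu class GSTM2 fell by 0.62 ± 0.24 (adjusted p = 0.0363) at a mean of 107.2 in the authors' deposited DESeq2 table. The class members with the highest means, GSTM3 at 0.07 ± 0.09 and GSTM4 at -0.14 ± 0.12, were not called in the authors' deposited table, and neither was GSTM1 at -1.23 ± 0.67 with a mean of 15.9. GSTT1, which conjugates small halogenated compounds, stood at -0.31 ± 0.11 and was called lower (adjusted p = 0.024) in the authors' deposited DESeq2 table. GSTM2 has close copies, and its value is given as uncertain. The value of GSTT1 is given as uncertain too, because the gene overlaps its antisense RNA GSTT1-AS1, whose mean was 5.13. It is not known here whether counting used strand. Other called enzymes, among them UGT2B4, UGT2B7, UGT2B11, SULT1A1 and GSTO1, also overlap further loci in RefSeq, and the part of these overlaps in the counts was not tested. GSTO1, an omega-class enzyme that reduces dehydroascorbate, rose by 0.30 ± 0.09 at a mean of 2459 in the authors' deposited table. GSTK1, found in mitochondria and peroxisomes, stood at 0.19 ± 0.09, and GSTZ1, an enzyme of tyrosine breakdown, at 0.01 ± 0.14 in that authors' deposited table. Neither was called, nor were GSTO2 and GSTT4. At an adjusted p under 0.01 the calls of UGT2B28, GSTA4, GSTM2 and GSTT1 are lost in the authors' deposited table.

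**Figure D2:**
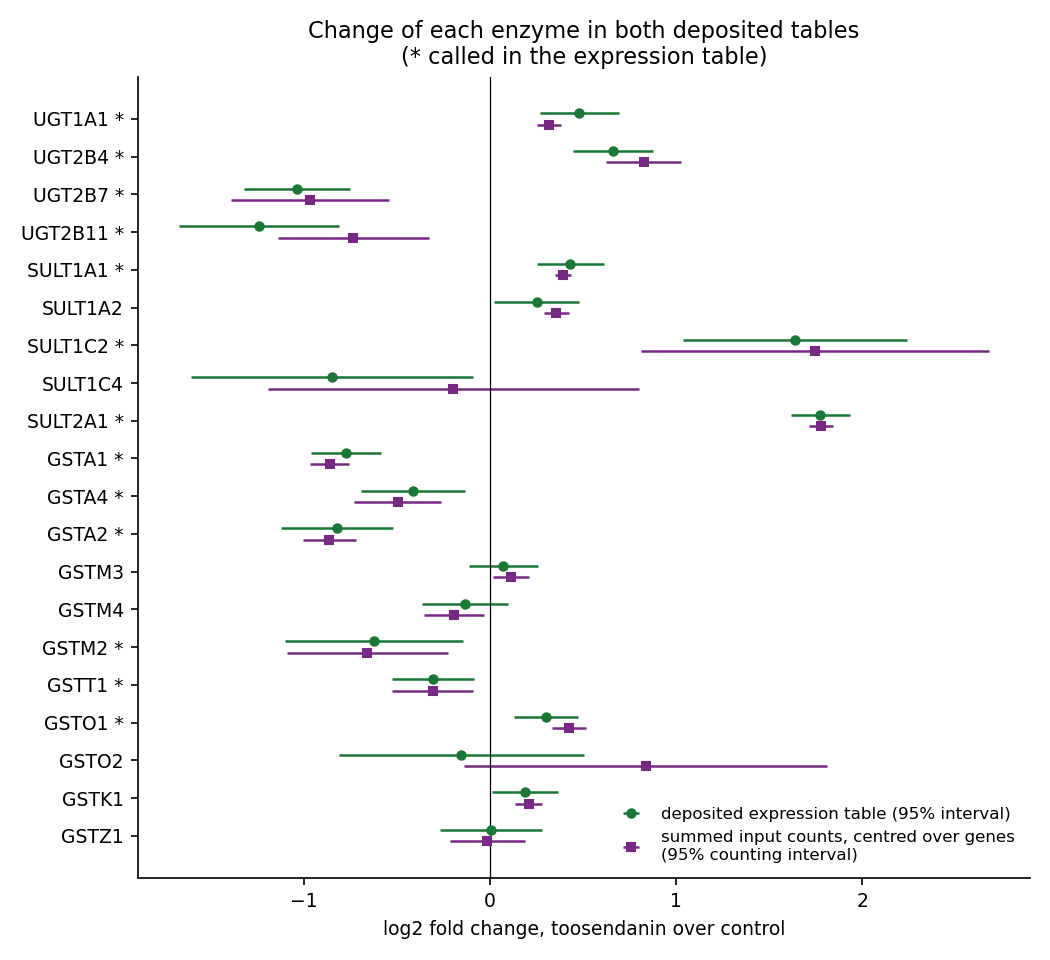
Log2 change (toosendanin over control) of each enzyme that has an m6A region under its own name, from the deposited expression fold change (circles, 95% interval) and from the summed input counts centred over genes (squares, 95% counting interval); asterisks mark enzymes called in the expression table. With this centring both values lie on the same side of 0 for all 13 starred enzymes. The input sums take every region that carries the enzyme's name. For UGT1A1 the square therefore stands at 0.32 and includes regions shared with other UGT1A genes, while its own region alone gave 0.63.

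After centring, all 13 called enzymes with regions had an input change of the same sign as the deposited fold change, and 23 of the 28 enzymes with regions did. These 28 are not separate comparisons. UGT1A4, UGT1A5, UGT1A6, UGT1A9 and UGT1A10 share the same input sums, as do SULT1A3 and SULT1A4, and UGT1A4, UGT1A5 and UGT1A10 carry no readable change. Without centring, 10 of the 13 did, and UGT1A1, SULT1A1 and GSTO1 turned to -0.18, -0.10 and -0.070. The direction of the deposited fold change was itself read from these inputs over all genes, so the shared sign is a description. The enzymes with opposite signs were UGT1A10, UGT1A4, SULT1A3, GSTO2 and GSTZ1, and none of these was called in the authors' deposited table. SULT2A1 and GSTT1 differed by less than 0.01 between the tables on the log2 scale, and UGT2B11, whose regions held few reads, by 0.51 in size.

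Changes of m6A were called at a deposited FDR under 0.05 in 9 of 36 regions of conjugating enzymes with an FDR, 6 higher and 3 lower after toosendanin. Over all regions with an FDR 8.95% were called, 2.71% higher and 6.24% lower. All 6 regions called higher had an IP over input ratio below that of all regions together, in both conditions. Relative to it they stood at -1.24 to -0.38 after toosendanin and -1.69 to -0.66 in control (log2), so the pull-down did not enrich them. Of those called lower, the UGT1A and UGT2B4 regions were above it in control, at 0.57 and 0.96, and that of SULT1A3 and SULT1A4 below, at -0.81. The remaining 18 regions of conjugating enzymes, with 42 to 391 reads each over the 4 sums, had no FDR. The deposited m6A p-values and the intervals given here hold counting error only, since the spread between libraries is not in the sums. Several regions share reads or near-identical copies and are not independent of each other. The median log2 fold change was 0.01 over the 54 regions and -0.06 over all regions.

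**Figure D3:**
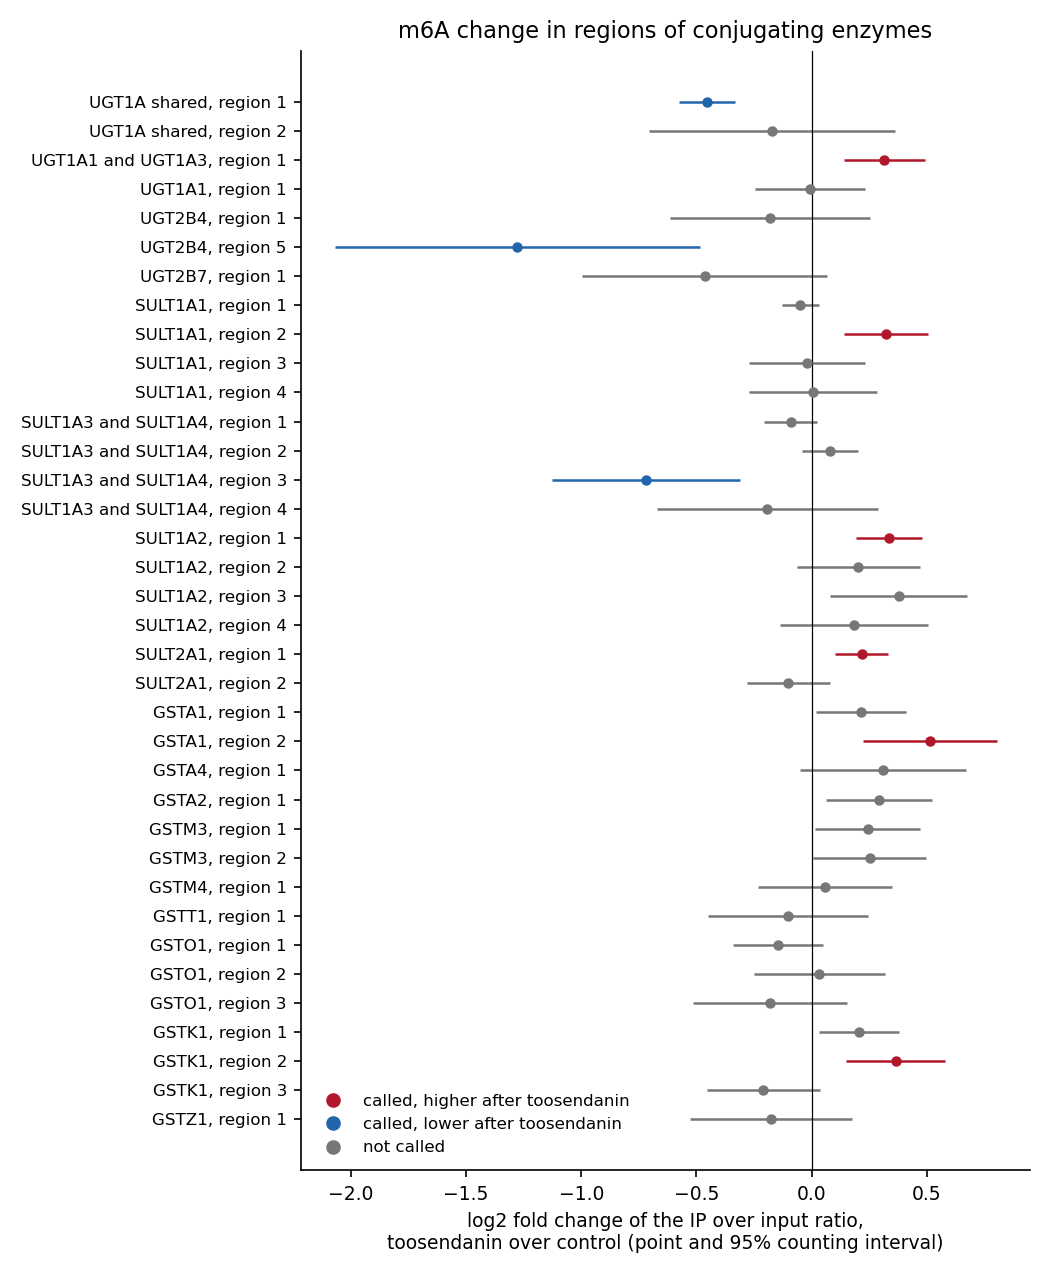
Change in the ratio of IP to input reads as deposited (log2, toosendanin over control) for the 36 regions of conjugating enzymes with an FDR, numbered within a gene by falling total count; bars are 95% counting intervals. Called regions are coloured: 6 lie right of 0, and 3 lie left of it. Those 3 are the larger region with the names of all UGT1A genes, a UGT2B4 region and a region of SULT1A3 with SULT1A4.

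SULT2A1 had its called m6A region in its larger one. The authors' sums there were 4236 IP and 4606 input reads after toosendanin, against 1551 IP and 1975 input reads in control, a ratio of 0.920 after toosendanin and 0.785 in control (log2 fold change 0.22, FDR 0.0043). Its second region stood at -0.10 (95% counting interval -0.28 to 0.08) and was not called. In SULT1A2 the ratio of the largest region was 0.667 after toosendanin and 0.501 in control (log2 fold change 0.34, FDR 0.000182), and in the second region of SULT1A1 it was 0.509 after toosendanin and 0.383 in control (0.32, FDR 0.00974). The other 3 regions of each of these genes were not called. A small region of SULT1A3 and SULT1A4 fell, with a ratio of 0.452 after toosendanin and 0.708 in control (-0.72, FDR 0.011), while their 2 largest regions stood at -0.09 and 0.08.

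The second region of GSTA1 had 255 IP and 298 input reads after toosendanin, against 497 IP and 836 input reads in control. Its ratio was 0.856 after toosendanin and 0.595 in control (log2 fold change 0.51, FDR 0.0101). The other alpha-class regions were not called, with log2 fold changes between 0.22 and 0.31. In GSTK1 the second region rose, with a ratio of 0.713 after toosendanin and 0.526 in control (0.36, FDR 0.0153), against -0.21 in the smallest of its regions, which was not called. The smallest region of UGT2B4 fell (-1.28, FDR 0.024), with 58 IP and 58 input reads after toosendanin and 77 IP and 32 input reads in control. The single UGT2B7 region had 96 IP and 61 input reads after toosendanin, against 363 IP and 168 input reads in control, and was not called (-0.46, 95% counting interval -0.997 to 0.0685).

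The strength of the pull-down is given by family as a description, with no test between families. Enrichment is given here as the log2 IP over input ratio of a region minus that of all regions together, so that 0 is the average read. The 10 UGT2B regions had a median enrichment of 0.08 after toosendanin and 0.54 in control, and 5 of them were above 0 after toosendanin against 9 in control. Of these 10 regions only that of UGT2B4 named above was called as changed, and 7 had no FDR. The 12 SULT1A regions had a median of -0.97 after toosendanin and -1.22 in control, with 1 above 0 in either condition. GST regions had a median of -0.63 after toosendanin and -0.89 in control. All regions of the table had a median of -0.02 after toosendanin and -0.04 in control. Regions with few input reads lie higher in this measure: among those with at least 100 control input reads 36.8% were above 0 in control, against 48.1% of all regions. Of the UGT2B regions 8 had fewer than 100 control input reads, and the other 2 stood at -0.06 after toosendanin and 0.07 in control for UGT2B4, and at 0.39 after toosendanin and 0.80 in control for UGT2B7. All 17 GST regions that reach 100 control input reads were below 0 in both conditions, and the 4 GST regions above 0 in control, of GSTM3 and GSTO2, had fewer. The second SULT1A1 region, at -1.24 after toosendanin and -1.69 in control, was lower in control than all but 0.226% of the regions. The larger shared UGT1A region stood at 0.22 after toosendanin and 0.57 in control, while the region of UGT1A1 and UGT1A3 stood at -0.88 after toosendanin and -1.31 in control.

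**Figure D4:**
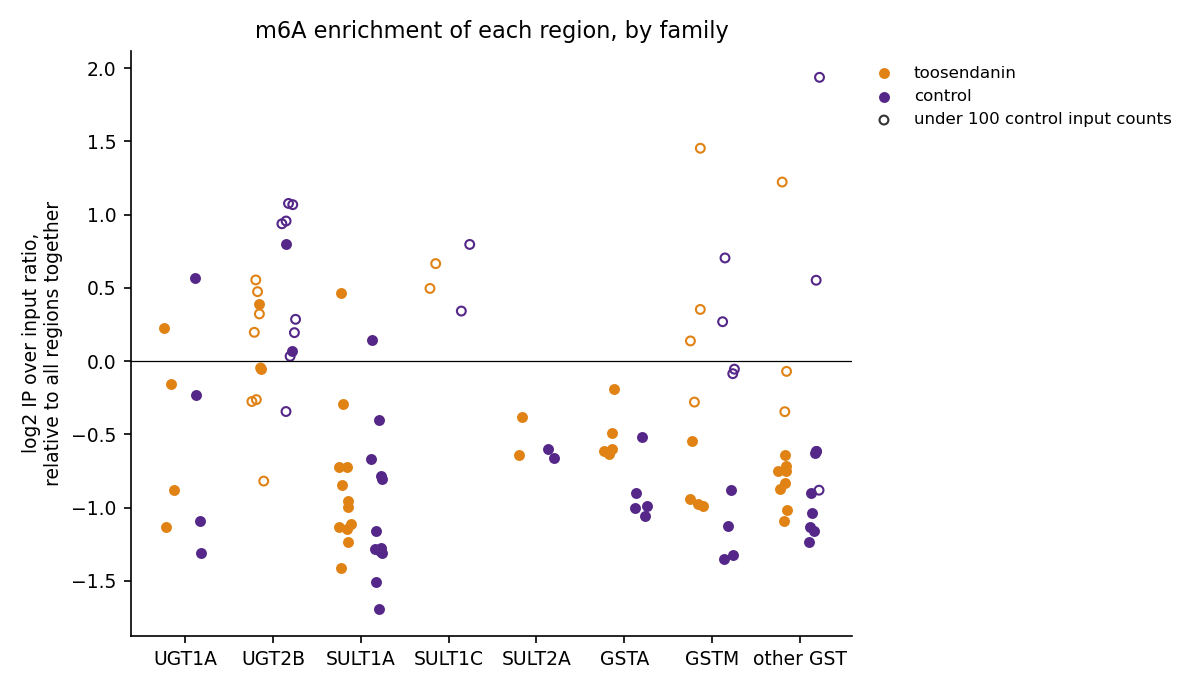
Enrichment of each region of a conjugating enzyme (log2 IP over input ratio relative to all regions together) after toosendanin (orange, left) and in control (purple, right), by family; open points have under 100 control input counts. In control 9 of 10 UGT2B regions lie above 0, while SULT1A, SULT2A and GSTA regions lie mostly or wholly below it in both conditions.

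Other genes of the same pathways were read from lists, whose median changes stand against 0.01 over all genes in the authors' deposited table. Of 10 genes of donor supply and sulfate cleavage, the authors' deposited table calls 2 higher and 1 lower, beside 31.4% of all genes called, so the share is near that of all genes. There PAPSS2, a synthase of the sulfate donor, rose by 0.93 ± 0.22 and SLC35B2, its carrier into the Golgi, by 0.90 ± 0.31, while PAPSS1, the other synthase, fell by 0.30 ± 0.06. The median log2 fold change of that list was 0.16, against -0.04 for glucuronic acid supply and -0.11 for glutathione in the authors' deposited table. Of 6 genes that supply glucuronic acid or cleave glucuronides, UGDH, which makes the donor, was the 1 called, at -0.21 ± 0.07 in the authors' deposited table. SLC35B1 stood there at 0.27 ± 0.12 and was not called. Of 17 glutathione genes with an adjusted p, 1 was called higher, 2 lower and 14 not called, beside 31.4% of all genes called. GGT1, which cleaves glutathione outside the cell, rose by 0.59 ± 0.10 in the authors' deposited table. The cystine carrier SLC7A11 and the limiting synthesis enzyme GCLC fell there by 0.99 ± 0.11 and 0.24 ± 0.06. Of 3 membrane-bound glutathione transferases and relatives with an adjusted p, MGST1 was the 1 called, at 0.65 ± 0.09 in the authors' deposited table. Other conjugating enzymes showed 2 higher and 1 lower of 8, beside 31.4% of all genes called. BAAT, which joins bile acids to glycine or taurine, stood at 1.67 ± 0.15 in the authors' deposited table. TPMT, a thiopurine methyltransferase, stood at 0.28 ± 0.11 and HNMT, which methylates histamine, at -0.56 ± 0.07 there.

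Of 21 transcription factors and partners known to act on these genes, 8 rose and 6 fell, with a median of 0.16, beside 15.7% of all genes in each direction in the authors' deposited table. The small MAF proteins MAFG and MAFK, partners of NRF2, were the largest increases at 1.58 ± 0.23 and 1.35 ± 0.13, and PPARA, a fatty acid receptor, rose by 1.14 ± 0.38 in the authors' deposited table. ARNT, the partner of the aryl hydrocarbon receptor, rose by 0.62 ± 0.13 in the authors' deposited table. NR1I2, the pregnane X receptor, which senses drugs and bile acids, stood at -0.48 ± 0.10 and was called lower in the authors' deposited table. The aryl hydrocarbon receptor AHR at -0.20 ± 0.10 and NFE2L2, which encodes NRF2, at -0.31 ± 0.61 were not called in the authors' deposited table. KEAP1 was called lower there at -0.31 ± 0.10. The remaining called genes of this list changed in both directions and are not named, though some changed more than NR1I2. Of 8 pumps that export drugs or conjugates, 2 were called higher and 6 not called, beside 31.4% of all genes called. ABCB1, or P-glycoprotein, rose by 0.76 ± 0.08 and ABCC1 by 0.36 ± 0.06 in the authors' deposited table. ABCC2, the main conjugate pump into bile, was not called there at -0.06 ± 0.07. The part of these genes in the enzyme changes was not tested.

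**Figure D5:**
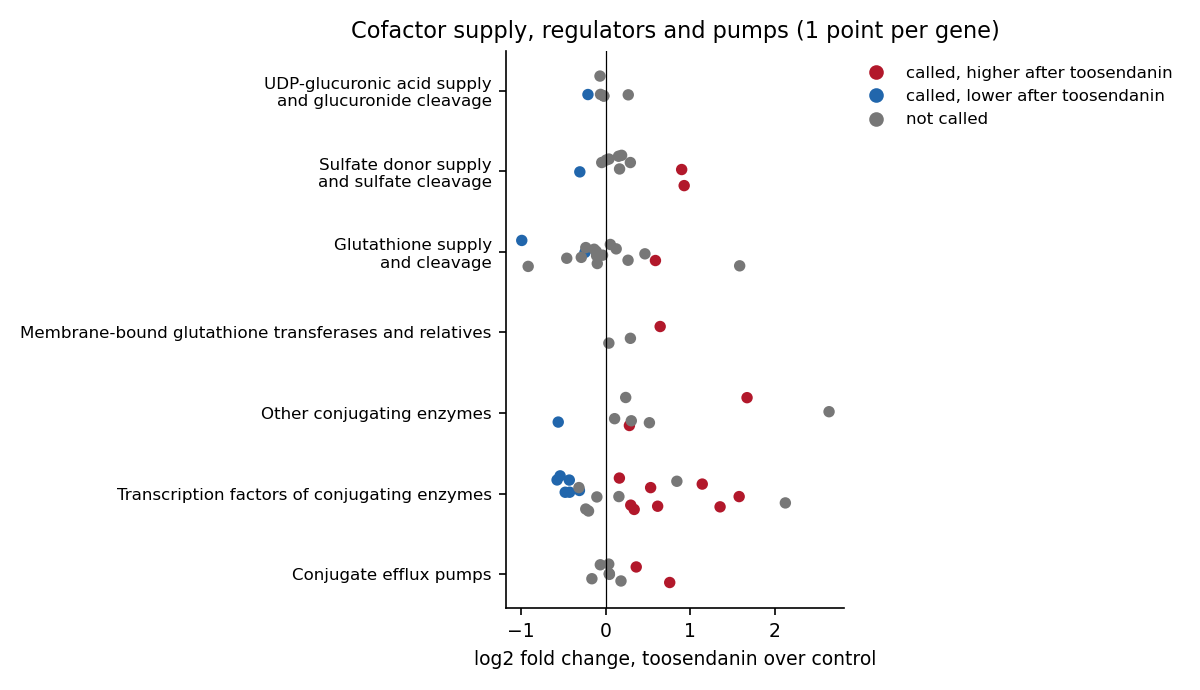
Log2 fold change (toosendanin over control) of each gene with an adjusted p on the lists of cofactor supply, related enzymes, transcription factors and pumps in the authors' deposited table; colours mark called genes, and vertical scatter within a list is for display only. Transcription factors fall on both sides of 0, with 8 called higher and 6 called lower.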

How the data were processed

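RNA of HepG2 cells was sequenced as m6A IP and input, 3 libraries each per condition, from a stranded kit with molecular identifiers, per the labels' protocols. The submitters' processing notes name HISAT2, StringTie and DESeq with no version. Neither build, annotation and counting settings nor the tool that tested regions are stated in the sources used here. Per the file headers, the authors deposited for 28265 genes DESeq2 output: the mean normalized count (a signal averaged over libraries), the log2 fold change and its standard error, the Wald score, and the p-value, raw and adjusted. For 46178 regions the authors deposited whole-number counts summed per condition, a log2 fold change, a p-value and an FDR. Nothing was refitted. Calls are at 0.05. Positive values were taken as higher after toosendanin, since the fold change had a Pearson r of 0.92 with the summed inputs, across 9249 genes of the upper 50% by mean. Counting intervals (95%) take the 4 sums as Poisson counts, and the error they imply was within 1% of that behind the deposited p in 99.96% of regions with at least 100 reads.

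Members and lists were chosen with earlier results of these data known. Named genes are all called enzymes, the enzyme with the highest mean of each family, enzymes with a called region, and up to 4 called genes per list; the others were named after their values were seen. The adjustment and the counting test were run on simulated data drawn from the error model that they assume. The simulation held no spread between libraries, so it cannot show how the calls stand up to that spread. Promoters come from RefSeq (GRCh38.p14). Alternatives were stricter thresholds, fold limits, count limits, centring, a new adjustment, and removal of genes or regions with shared sequence. Python 3.11.15, numpy 2.4.6, pandas 2.3.3, scipy 1.17.1 and matplotlib 3.10.9 were used. A listed transcription factor is not reported here by name.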

Additional observations from a re-analysis of the deposited data

How the results depend on the processing

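No paired analysis was possible because neither table used here holds values per library, and for the same reason no library could be left out. The 15 expression calls, 6 higher and 9 lower, fell to 6 (2 higher, 4 lower) with a change of at least 2-fold. At an adjusted p under 0.01, 5 enzymes were called lower. Without the UGT1A genes, SULT1A3, SULT1A4, GSTA1, GSTA2, GSTM1, GSTM2, GSTM4, GSTM5, GSTT1 and the UGT2B genes other than UGT2B7, 6 calls stood: SULT1A1, SULT1C2, SULT2A1 and GSTO1 higher, and 2 lower, UGT2B7 and GSTA4. SULT1A1 and UGT2B7 were kept, although they have close relatives too. Both of them and GSTO1 also overlap other RefSeq loci. The counts stayed within 1.5-fold of the reported ones with an adjustment over all genes with a p, with only genes in the upper 50% of means, or with centring, where the log2 fold change of GSTZ1, which was not called, turned to -0.0033. The 9 m6A calls became 5 at an FDR under 0.01, 1 of them lower, and 2 with a change of at least 1.5-fold, 0 of them higher. With regions of 1 gene label, 1 lower call stood. After centring there were 12 m6A calls, 9 higher and 3 lower. A limit of at least 100 reads left the 9 calls in place. It could not change them, since each region of these enzymes with an FDR held at least 225 reads. Input changes without centring turned to -0.18 for UGT1A1, -0.10 for SULT1A1 and -0.070 for GSTO1, as the toosendanin inputs hold fewer reads in total. Depth limits the 7 enzymes with means of at most 1.31, whose standard errors were above 3 on the log2 scale. Why 18 regions have no FDR is not known here, since some hold more reads than a region with one.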

Other observations

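Genes that matched the name patterns but were not described as enzymes gave these values in the authors' deposited table. GSTT2, a transcribed pseudogene in RefSeq, stood at 0.69 ± 0.37 on the log2 scale with a mean normalized count of 70.5 and was not called. GSTA7P and GSTM2P1, also pseudogenes, had means of 14.3 and 5.71 and were not called in the authors' deposited table. The 14 genes listed at a mean of 0 include GSTP1, the pi-class enzyme, UGT2B15 and UGT2B17, which conjugate androgens, and the UGT3A genes.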
